A study of Homo sapiens with 6 samples.

Results

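The genes described here encode the SF3b and SF3a complexes of the U2 small nuclear ribonucleoprotein (U2 snRNP). They are 10 of the 38637 genes in the table, found by symbol: 7 of SF3b (SF3B1, SF3B2, SF3B3, SF3B4, SF3B5, SF3B6 and PHF5A) and 3 of SF3a (SF3A1, SF3A2 and SF3A3). All 10 passed the filter on low values. RNA was sequenced from OVCAR8, a human ovarian cancer cell line whose genotype the labels give as wild type. The control group received the solvent DMSO, and the treated group received 2 nM pladienolide B, an inhibitor of SF3B1, both for 72 h, with 3 samples in each group. Whether the samples of a group came from separate cultures is not stated, so that the p-values measure only the spread between these samples, which may be technical.

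An early step of splicing is the binding of the U2 snRNP to the branch point of an intron, the site of the adenosine that attacks the upstream splice site. SF3a and SF3b are the protein complexes that make this particle able to hold the branch point. SF3B1 is a ring of helical HEAT repeats that closes around the paired branch site, and pladienolide B occupies the pocket that SF3B1 forms with the small zinc finger protein PHF5A. SF3b is also a part of the minor spliceosome, where it serves U12-type introns.

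The samples had between 22621338 and 26130882 reads on genes, recovered from the deposited values, and every SF3 gene had between 934 and 13850 reads in each sample. Values are given as adjusted reads, which are reads scaled by the authors to a common library size. They are relative to the other reads on genes in the same sample, so that a change per cell and a change in the other RNA of the cell cannot be told apart. DMSO replicate 2 stood apart, with a chi-square per degree of freedom of 7.58 and 7.64 against the other DMSO samples, where counting error alone gives about 1 and the other pairs of replicates gave 1.94 to 4.95. Of the ovarian epithelial markers, KRT8, KRT18, KRT7 and PAX8 had at least 4011 adjusted reads in every sample, while EPCAM had 431 to 513 and WT1 and MUC16 had at most 33.8. Of these 7 markers KRT7 was lower in pladienolide B (log2 change -0.64), KRT8 and KRT18 were higher (0.27 and 0.29), and 4 did not pass the test. Of the 8 markers of leukocytes, endothelium and smooth muscle, 5 did not pass the filter on low values, and of the other 3 the muscle gene DES was higher in pladienolide B (26.04 ± 4.06 in DMSO against 71.1 ± 8.74 adjusted reads, SD, n = 3). The smooth muscle gene MYH11 (99.2 against 105 adjusted reads) and the endothelial gene PECAM1 (31.6 against 33.1) did not pass the test (limma, adjusted p = 0.789 and 0.904). The part of these markers in the results below was not tested.

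After pladienolide B, 7 of the 10 SF3 genes were higher and none lower by limma, at an adjusted p under 0.05. Of all 16178 tested genes 22.4% were higher and 25.2% lower by the same rule, with no matching for the level of the genes. The 7 genes were SF3B1, SF3B2, SF3B3, SF3B4 and all 3 SF3a genes, with log2 fold changes from 0.22 to 0.88. The other 3, SF3B5, SF3B6 and PHF5A, lay between -0.07 and 0.18 and did not pass the test. In each of the 7 genes every pladienolide B sample was above every DMSO sample, as it was in 26.4% of all tested genes. The median log2 fold change was 0.30 over the 10 SF3 genes and -0.0042 over all tested genes. On the recovered reads, edgeR's quasi-likelihood test and DESeq2 each called the same number, 7, higher, where they called 23.0% and 21.1% of all tested genes higher.

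**Figure D1:**
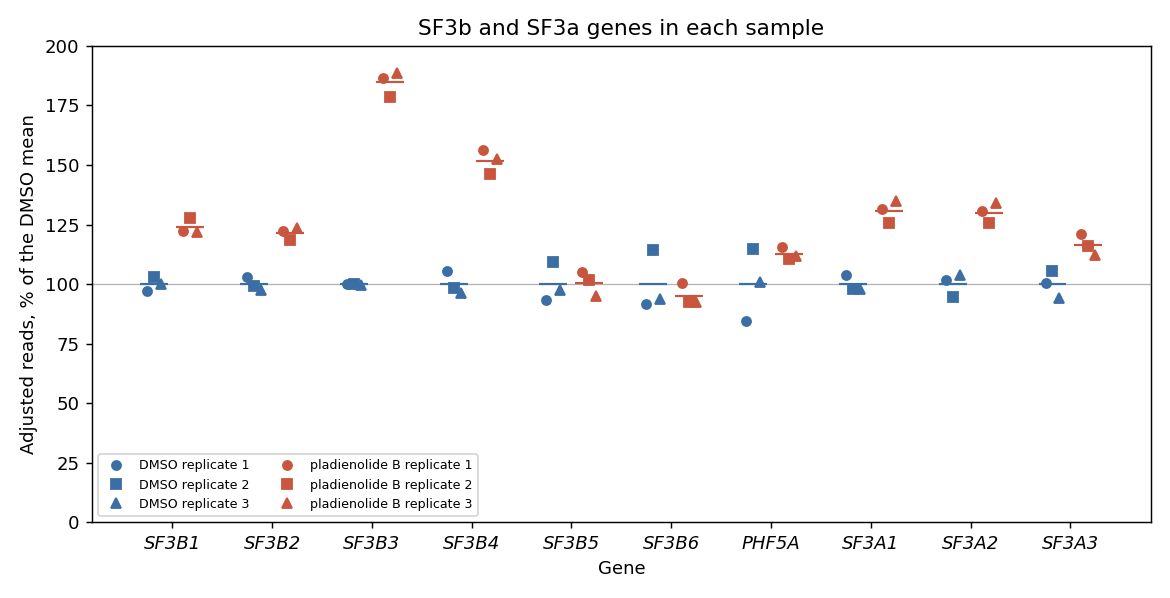
Adjusted reads of each SF3b and SF3a gene (x axis) as a percentage of that gene's DMSO mean (y axis), with 1 point for each of the 3 DMSO (blue) and 3 pladienolide B (orange) samples and a line at each group mean. SF3B3 reached 185% of the DMSO mean and SF3B4 152%, while the groups overlap in SF3B5, SF3B6 and PHF5A.

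The upstream sequences of 3 of these genes are shown because the genes differ in response. SF3B4 and SF3B1 rose, and SF3B5 did not pass the test. RefSeq promoters of GRCh38.p14, from 250 bases before to 50 bases after the annotated start, were found for 8 of the 10 genes, all except SF3B3 and PHF5A. Each sequence below is the 250 bases before the start, on the strand of the gene, with capitals for the letters that match 1 of 4 motifs searched on both strands, CCGGAAG (the ETS core), GCATGCGC (NRF1), CACGTG (the E-box) and CCAAT. SF3B4 lies at chr1:149927804-149928053, SF3B1 at chr2:197435094-197435343 and SF3B5 at chr6:144095574-144095823, all on the - strand, and no annotated exon overlaps these stretches.
SF3B4: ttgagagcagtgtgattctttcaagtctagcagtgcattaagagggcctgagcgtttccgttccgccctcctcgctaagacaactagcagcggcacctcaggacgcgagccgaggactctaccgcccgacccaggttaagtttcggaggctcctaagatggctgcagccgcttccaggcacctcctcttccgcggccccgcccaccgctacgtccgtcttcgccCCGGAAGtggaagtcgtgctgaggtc
SF3B1: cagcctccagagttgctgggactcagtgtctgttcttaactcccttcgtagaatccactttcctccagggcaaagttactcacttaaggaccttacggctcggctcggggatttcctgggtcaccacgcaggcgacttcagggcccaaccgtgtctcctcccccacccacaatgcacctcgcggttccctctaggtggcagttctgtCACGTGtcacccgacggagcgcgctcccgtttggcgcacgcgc
SF3B5: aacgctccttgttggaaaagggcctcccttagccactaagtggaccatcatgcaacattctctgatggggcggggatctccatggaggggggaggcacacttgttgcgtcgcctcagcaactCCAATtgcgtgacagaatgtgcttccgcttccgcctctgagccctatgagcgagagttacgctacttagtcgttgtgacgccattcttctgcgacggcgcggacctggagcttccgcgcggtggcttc

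The capitals begin at position -26 from the start in SF3B4 (the ETS core), at -43 in SF3B1 (the E-box) and at -128 in SF3B5 (CCAAT). In the full window of 300 bases, 6 of the 8 SF3 promoters held the ETS core, against 17.9% of the promoters of 12198 tested genes and 10.3% of all 35116 promoters. Where a gene had several promoter entries, the one nearest to the deposited gene start was taken for SF3 genes. For tested genes the first listed entry was taken. The 6 comprise 5 genes that rose, SF3B2, SF3B4, SF3A1, SF3A2 and SF3A3, and SF3B6, which did not pass the test and had the most matches, 3. The match nearest to the start of each is shown with 10 bases on either side, on the strand of the gene and in capitals, since the ETS core was found in 6 of 8 SF3 promoters, as was the GC box, and is the less frequent of the pair among tested genes.
SF3B2: ctggccccagCTTCCGGgttggtcgcg
SF3B4: cgtcttcgccCCGGAAGtggaagtcgt
SF3B6: gctgtaacagCTTCCGGcgggtcctgg
SF3A1: ggggacggtcCCGGAAGtgcgccagtc
SF3A2: ctcatttgccCCGGAAGtgctttcttt
SF3A3: gcaggagttgCTTCCGGccgtgttggt

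These windows lie at chr11:66052340-66052366 (+) for SF3B2, chr1:149927813-149927839 (-) for SF3B4, chr2:24076329-24076355 (-) for SF3B6, chr22:30356927-30356953 (-) for SF3A1, chr19:2236805-2236831 (+) for SF3A2 and chr1:37989998-37990024 (-) for SF3A3. The match shown for SF3A3 begins at +9, after the start. Annotated exons overlap the 250 bases before the start in SF3B2, SF3B6, SF3A1, SF3A2 and SF3A3. Among them are exons of FAM228B (at SF3B6), CCDC157 (at SF3A1) and PLEKHJ1 (at SF3A2). The E-box was found in 1 of 8 SF3 promoters (9.85% of tested genes), the NRF1 motif in 1, that of SF3A2 (5.20%), CCAAT in 1 (36.1%), the GC box GGGCGG in 6 (68.3%), which can overlap other motifs, and the TATA box TATAAA in 0 (6.02%). A match is a run of letters and was not tested as a binding site, nor for a link to the response of a gene.

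SF3B3, a scaffold of beta-propellers that SF3B1 rests on, had the largest rise of the 10. It lies on chromosome 16 (70523816 to 70577668, + strand) and its canonical transcript has 26 exons. It had 7367, 7366 and 7319 adjusted reads in DMSO replicates 1 to 3 and 13706, 13134 and 13880 in pladienolide B replicates 1 to 3. The coefficient of variation of the DMSO samples was 0.374%, and the lowest pladienolide B sample was far above them. The means were 7350.2 ± 27.5 and 13573 ± 390.0 (SD, n = 3), a log2 change of 0.88 ± 0.04 (SE, limma, adjusted p = 2.8e-11) that was above 97.3% of tested genes.

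SF3B4 carries RNA recognition motifs and touches the intron upstream of the branch point. It lies on chromosome 1 (149923317 to 149927803, - strand) and has 6 exons. Its adjusted reads were 2337, 2176 and 2130.1 in DMSO and 3463, 3236 and 3373 in pladienolide B. The groups were far apart relative to their spread, with means of 2215 ± 109 and 3357 ± 114 (SD, n = 3). The log2 change was 0.60 ± 0.05 (SE, limma, adjusted p = 3.5e-08), above 94.1% of tested genes.

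SF3B1, the subunit that pladienolide B binds, lies on chromosome 2 (197389784 to 197435093, - strand) and has 25 exons. It had 9787, 10387 and 10083 adjusted reads in DMSO and 12345, 12892 and 12289 in pladienolide B. All treated samples were above all controls, and the mean rose from 10085 ± 299.9 to 12509 ± 333 (SD, n = 3), to 124% of the DMSO level. The log2 change was 0.31 ± 0.04 (SE, limma, adjusted p = 7.5e-06). SF3B2, which holds SF3B4 in the complex, is on chromosome 11 (66052361 to 66069308, + strand) and has 22 exons. Its adjusted reads were 10792, 10409 and 10225 in DMSO and 12815, 12403 and 12921 in pladienolide B. All treated samples again lay above the controls, and the log2 change of 0.28 ± 0.04 (SE, limma, adjusted p = 1.9e-05) was close to that of SF3B1. SF3B1 and SF3B2 thus moved by 0.31 and 0.28, with 95% confidence intervals of 0.23 to 0.40 and 0.20 to 0.36.

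The SF3a genes rose by less than SF3B3. SF3A1, the subunit that contacts the U1 particle, is on chromosome 22 (30331988 to 30356894, - strand, 16 exons). It had 3782, 3566 and 3573 adjusted reads in DMSO and 4781, 4579.8 and 4907 in pladienolide B, with no overlap. Its log2 change was 0.39 ± 0.04 (SE, limma, adjusted p = 1.8e-06). SF3A2, a zinc finger protein at the branch helix, is on chromosome 19 (2236824 to 2248655, + strand, 9 exons). It had 1913, 1773 and 1948 adjusted reads in DMSO and 2451, 2356 and 2520.4 in pladienolide B. These groups did not overlap either, and the log2 change was 0.38 ± 0.05 (SE, limma, adjusted p = 9.7e-06). SF3A3, which joins SF3a to the rest of the particle, is on chromosome 1 (37956975 to 37990022, - strand, 17 exons). It had 3493, 3670.1 and 3287 adjusted reads in DMSO and 4214, 4041 and 3903 in pladienolide B. It had the smallest change of the 7 genes that passed, a log2 change of 0.22 ± 0.05 (SE, limma, adjusted p = 0.0012), and without a filter on low values it no longer passed.

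**Figure D2:**
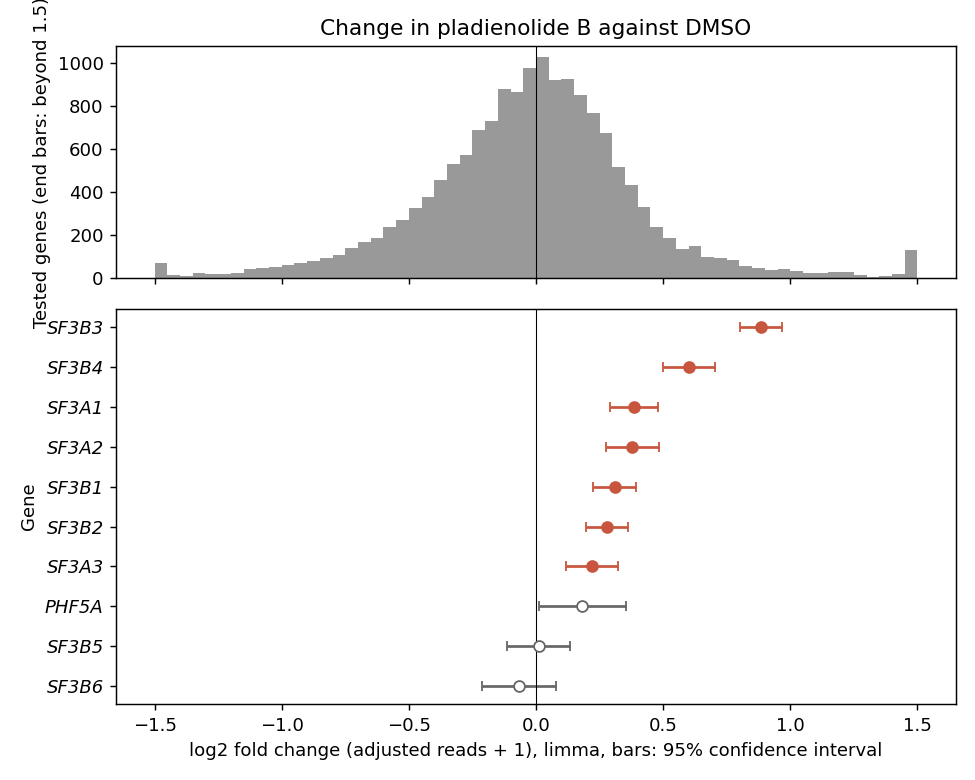
Upper panel, number of tested genes (y axis) by log2 fold change of pladienolide B against DMSO (x axis), with values beyond 1.5 in size gathered in the end bars. Lower panel, the log2 fold change of each SF3 gene with its 95% confidence interval, filled where the adjusted p was below 0.05. SF3B3 is at 0.88 and SF3B6 at -0.07.

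PHF5A, SF3B5 and SF3B6, the smallest proteins of SF3b, did not pass the test. PHF5A, which lines the pladienolide B pocket, is on chromosome 22 (41459717 to 41468692, - strand, 4 exons). It had 878, 1188 and 1044 adjusted reads in DMSO and 1200.5, 1145 and 1158 in pladienolide B. DMSO replicate 2 lay among the treated samples and the other controls below them. The log2 fold change was 0.18 (95% confidence interval 0.01 to 0.35, adjusted p = 0.0748 by limma). Without DMSO replicate 2 it was 0.29 and passed (adjusted p = 0.0012 by limma), and without DMSO replicate 1 it was 0.07 (adjusted p = 0.462 by limma). PHF5A also passed when each sample was centred on its median and with upper-quartile factors. In these settings more of all genes were higher, 4373 and 3982 instead of 3618. Fewer were lower, 3444 and 3764 instead of 4077.

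SF3B5, which sits against SF3B3, is on chromosome 6 (144094884 to 144095573, - strand) and is a gene of 1 exon, with no intron to be spliced. It had 1839.8, 2163 and 1925 adjusted reads in DMSO and 2073, 2008 and 1880.0 in pladienolide B. The treated samples lay inside the range of the controls, and the log2 fold change was 0.01 (95% confidence interval -0.12 to 0.14, adjusted p = 0.907 by limma). SF3B6, also called p14, contacts the branch site region and is on chromosome 2 (24067586 to 24076326, - strand, 4 exons). It had 1830.3, 2281 and 1873 adjusted reads in DMSO and 2005, 1845 and 1845 in pladienolide B. The groups overlapped, with a log2 fold change of -0.07 (95% confidence interval -0.21 to 0.08, adjusted p = 0.464 by limma). Without DMSO replicate 2 the values of SF3B5 and SF3B6 were 0.08 and 0.03 (adjusted p = 0.207 and 0.582 by limma).

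These 3 genes have the shortest transcripts of the 10. Their canonical GENCODE transcripts have 651 to 1053 bases, 86 to 125 codons and 0 to 3 introns, against 1544 to 9692 bases, 424 to 1304 codons and 5 to 25 introns. They were grouped after their values were seen, and the grouping carries no test. Their coefficients of variation in DMSO were 8.48% to 14.97%, against 0.374% to 5.51% in the other 7 genes, while in pladienolide B they were 2.49% to 4.93% and 2.15% to 3.85%. In all 3 the highest DMSO sample was replicate 2 and the lowest was replicate 1, an order that SF3B1 also had, and replicate 2 was the highest DMSO sample in 5 of the 10 SF3 genes. Across all 1327 tested genes whose transcripts are no longer than 1053 bases, the median log2 deviation from the DMSO mean was 0.07 in DMSO replicate 2 and -0.04 in DMSO replicate 1, where the 13732 genes with longer transcripts gave 0.006 and -0.0013. Pladienolide B raised 13.1% and lowered 23.0% of those short-transcript genes (median log2 change -0.07), and raised 24.1% and lowered 26.2% of the longer ones (median 0.0009). Of the 575 tested genes whose canonical transcript has 1 exon, as that of SF3B5 has, 21.4% were higher and 12.2% lower, with a median log2 change of 0.07. The part of transcript length and of DMSO replicate 2 in the values of PHF5A, SF3B5 and SF3B6 was not tested beyond leaving that sample out.

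**Figure D3:**
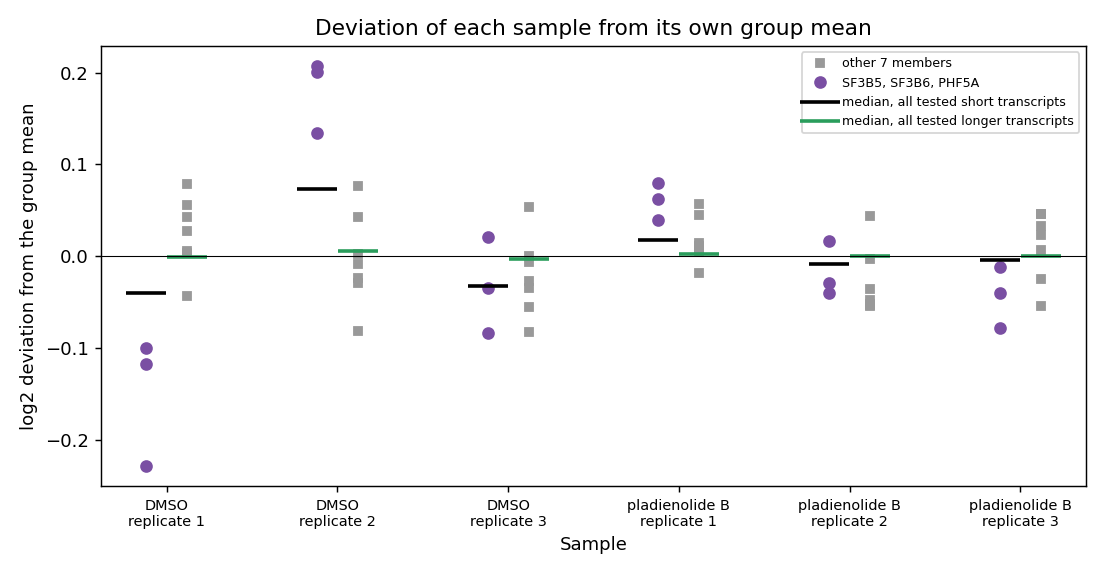
Log2 deviation from the mean of its own group (y axis) for each sample (x axis), for SF3B5, SF3B6 and PHF5A (purple circles) and the other 7 SF3 genes (grey squares), with the medians of all tested genes with transcripts of up to 1053 bases (black bars) and of longer ones (green bars). In DMSO replicate 2 the purple points lie between 0.13 and 0.21 and the black bar at 0.07.

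To ask whether the genes moved by the same amount, the log2 ratio of each to SF3B1 was taken within every sample, which gave 9 ratios. The ratio of SF3B3 to SF3B1 was -0.41, -0.50 and -0.46 in DMSO and 0.15, 0.03 and 0.18 in pladienolide B. It was higher in every treated sample, by 0.57. The ratio of SF3B4 was higher by 0.29, and those of SF3B5 and SF3B6 were lower, at -0.30 and -0.38, again with no overlap between the groups. For these 4 the exact permutation test gave p = 0.1, the smallest that 3 samples against 3 allow, and 0.225 after adjustment over 9 ratios, so that this test could not pass the threshold with 3 samples a group. The other 5 ratios, of SF3B2, PHF5A, SF3A1, SF3A2 and SF3A3, differed by -0.13 to 0.07 and their groups overlapped (exact permutation p from 0.2 to 0.6). The confidence interval of SF3B3, 0.80 to 0.97, does not meet that of SF3B1, 0.23 to 0.40. SF3B1 itself rose by 0.31, so the ratio of a gene without any change falls by that amount. The log2 changes of SF3B5 and SF3B6 were 0.01 and -0.07, beside a median of -0.0042 over all tested genes. The share of all tested genes whose ratio to SF3B1 separates the groups was not counted.

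Levels of different genes were compared per kilobase of the canonical transcript. In DMSO the order, in adjusted reads per kilobase, was SF3B2 with 3201 ± 88.4 (SD, n = 3), SF3B6 with 3064 ± 382, SF3B5 with 2864 ± 243, SF3B1 with 1560.5 ± 46.4, SF3B4 with 1434 ± 70.4, SF3A3 with 1256 ± 69.1, SF3A2 with 1160.1 ± 57.2, PHF5A with 985 ± 147, SF3B3 with 758 ± 2.83 and SF3A1 with 715 ± 24.1. The ranges of neighbours in this order overlapped for SF3B2 and SF3B6, SF3B6 and SF3B5, SF3A3 and SF3A2, and SF3A2 and PHF5A. In pladienolide B, SF3B3 was at 1400.5 ± 40.2 and moved from the ninth to the eighth place, above PHF5A, and SF3B4 at 2174 ± 74.1 moved above SF3B1 at 1935 ± 51.6. SF3B2 stayed first, with 3885 ± 83.6, and SF3A1 last, with 934 ± 32.5. These levels assume that the canonical transcript is the one in use, and the canonical transcript of SF3B3, of 9692 bases, is the longest of the 10.

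**Figure D4:**
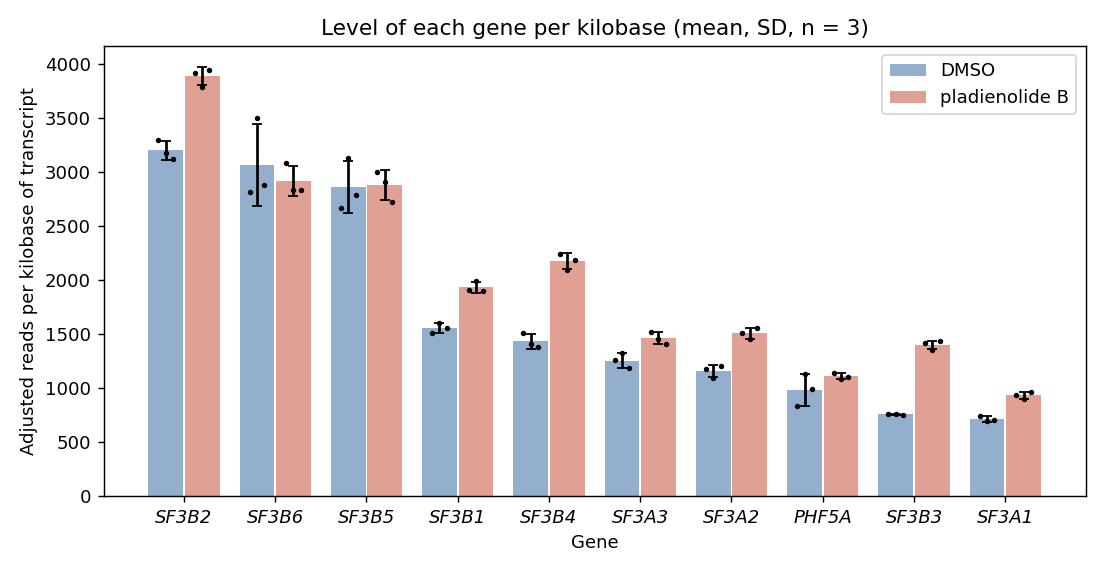
Adjusted reads per kilobase of canonical transcript (y axis) for each SF3 gene (x axis), as the mean and SD of 3 DMSO (blue) and 3 pladienolide B (orange) samples, with a point for each sample. SF3B2 leads in both groups and SF3A1 is last.

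The other parts of the U2 particle and its partners were counted over 4 lists of genes. Both genes of the U2 core outside SF3, SNRPA1 and SNRPB2, were higher. SNRPA1, which with SNRPB2 binds the U2 snRNA, went from 1157 ± 116 to 2251 adjusted reads, a log2 change of 0.96 (limma, adjusted p = 3.5e-09). Of 13 U2-associated and branch-site factors, 9 were higher and 1 was lower, with a median log2 fold change of 0.17. The lower one was DDX46, the helicase that loads U2 on the branch point with SF3b. It went from 4189 ± 206 to 1968 adjusted reads, a log2 change of -1.09 (limma, adjusted p = 2.3e-11), opposite in sign to the 7 SF3 genes that passed. U2AF1, which recognises the end of the intron, had a log2 fold change of 0.50 on only 26.2 to 58.1 adjusted reads and did not pass (adjusted p = 0.137 by limma). Its near-identical copy in GRCh38, U2AF1L5, had a log2 change of 0.19 and did not pass either, and how reads were split between the pair is uncertain.

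Of the 7 Sm ring genes, which all spliceosomal snRNPs other than U6 share, 2 were higher and none was lower, with a median log2 fold change of 0.08. Of the 8 listed proteins of the U11/U12 particle, which also carries SF3b, 1 was higher and 2 were lower, with a median of -0.06. Over all 30 genes of these lists 14 were higher and 3 lower, a share of 46.7% higher beside 70.0% of the SF3 genes and 22.4% of all tested genes. The share higher was 100% in the U2 core and 69.2% in the branch-site factors, like that of the SF3 genes or above it. It was 28.6% in the Sm ring and 12.5% in the U11/U12 list. Without DMSO replicate 3 the 14 became 9, and 3164 instead of 3618 of all tested genes were higher. The lists were written with earlier results of these data known. The shares are a description and were not matched for the level of the genes.

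**Figure D5:**
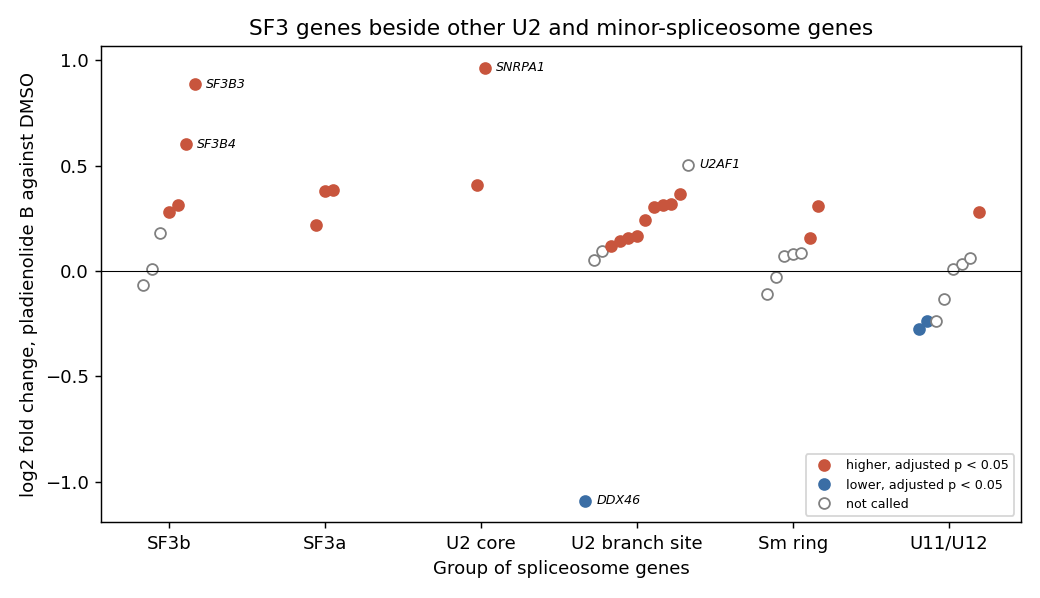
Log2 fold change of pladienolide B against DMSO (y axis) for each gene of SF3b, SF3a and the 4 other lists (x axis), orange where higher and blue where lower at an adjusted p below 0.05, and open where the test was not passed. SNRPA1 at 0.96 and DDX46 at -1.09 are the extremes.

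Other genes whose reads could be mixed into these values were searched for only by overlapping position and by symbol. Copies under other names were not searched for. The table holds no pseudogene named after an SF3 gene. SF3B6 overlaps FKBP1B by 158 bases on the opposite strand, and FKBP1B had a mean of 60.1 adjusted reads in DMSO and 67.9 in pladienolide B. SF3A1 overlaps CCDC157 by 271 bases, also on the opposite strand, with 98.6 and 102 adjusted reads. The small nucleolar RNA genes inside SF3B2 and SF3B3 (SNORD13F, SNORD111 and SNORD111B) had no reads. Whether reads were assigned by strand is not stated. The genes whose log2 values over the 6 samples were most like those of SF3B1 were POLDIP2, GPR3 and NAA35, with Pearson correlations of 0.9997, 0.9990 and 0.9987, a description over 6 samples in 2 groups.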

How the data were processed

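RNA of OVCAR8 cells was sequenced in 3 DMSO and 3 pladienolide B samples (2 nM, 72 h). The labels name HISAT2, HTSeq 0.12.4, DESeq2 and hg19, and the methods name hg38. Of 35926 symbols matched to GRCh38.p14, 99.8% had an overlapping position, those of the 10 SF3 genes included, so positions are given on GRCh38. The values the authors deposited are a signal, reads per gene adjusted for library size as edgeR makes them by quantile adjustment. Inverting that adjustment gave whole reads, within 0.02, for 100% of 96432 values of 10 or more. The authors' deposited log2 fold changes, p-values and q-values were not used.

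Values were tested as log2(value + 1), a scale that understates changes of low genes, with limma 3.58.1 (R 4.3.3, trended variance, two-sided, Benjamini-Hochberg over all genes), after edgeR's filterByExpr (10 in 3 samples, 15 in total), which kept 16178 genes. A call is an adjusted p below 0.05. edgeR 4.0.16 and DESeq2 1.42.0 on recovered reads were alternatives, as the table did not hold whole counts. Scripts were tested on simulated data. The genes named are the SF3 genes, genes of the lists that passed with a log2 change of at least 0.5, overlapping genes, and the 3 most like SF3B1. U2AF1 and genes that stand for a group were named after their values were seen. The members and lists were chosen with earlier results of these data known. Transcripts are GENCODE v44 canonical.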

Additional observations from a re-analysis of the deposited data

How the results depend on the processing

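Over 18 alternatives, 6 of which leave out 1 sample, between 6 and 8 SF3 genes were called higher, against 7. None was called lower. Of all genes, between 2118 and 4373 were called higher over these alternatives, against 3618. The 7 SF3 genes kept their direction in all alternatives. Only SF3A3 lost its call, with an adjusted p of 0.0767 by limma, without a filter on low values. PHF5A passed with upper-quartile factors (0.20, adjusted p = 0.0459 by edgeR), with values centred on the median of each sample (0.23, adjusted p = 0.0280 by limma) and without DMSO replicate 2 (0.29). In these settings 3982, 4373 and 3796 of all genes were called higher. The sign changed for SF3B5, to -0.040, -0.0070 and -0.021 without DMSO replicate 1, DMSO replicate 3 and pladienolide B replicate 1, and for SF3B6, to 0.035 without DMSO replicate 2 (ranges with 1 sample left out, -0.040 to 0.077 and -0.12 to 0.035). With 1 sample left out, the log2 ratio of SF3B2 to SF3B1 differed by -0.057 to 0.012, and its sign changed without DMSO replicate 1 (0.012) and without pladienolide B replicate 2 (0.0083). The other 8 ratios kept their sign. SNRPA1 and DDX46 kept their direction and call in all 36 values.

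Of the 30 other spliceosome genes 14 were called higher, 8 in limma without the variance trend, 8 without a filter on low values, and between 9 and 18 with 1 sample left out, the lowest without DMSO replicate 3. Of all genes, 2118 instead of 3618 were higher and 2428 instead of 4077 lower without a filter on low values. In limma without the variance trend 2920 of all genes were higher, and with 1 sample left out between 3006 and 3796. The causes were not tested. With the replicate number as a block, 7 SF3 genes were again higher and 14 and 2 of the other spliceosome genes were higher and lower. Of all 16178 tested genes 3440 were higher and 3909 lower with that block. Correlations between the deviations of samples with the same number were -0.018, -0.017 and 0.0026, and those of the other pairs lay from -0.035 to 0.048. No deviation shared by samples of the same number was seen. This cannot show whether the numbers mark a shared culture or day, which is not stated. The block with edgeR was added after the data were seen. All SF3 genes had at least 934 reads in every sample, and 3 samples a group limit the precision.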
